A study of Mus musculus with 16 samples.

Results

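The proteasome is the barrel-shaped protease that degrades ubiquitin-tagged proteins in the cytosol and nucleus. Its genes were taken from the expression table by symbol, as every name that begins with Psma, Psmb, Psmc, Psmd, Psme or Psmf followed by a digit. Of 12012 genes, 45 carried such a symbol and none was a pseudogene. One of them, Psmc3ip, encodes a partner protein of meiotic recombination and is no proteasome subunit, so it is described apart and 44 genes are counted below. They comprise 8 alpha subunits (Psma) and 7 beta subunits (Psmb) of the core particle, 3 immunosubunits (Psmb8, Psmb9 and Psmb10), 6 ATPases of the regulatory particle base (Psmc) and 14 other genes of the regulatory particle (Psmd). The remaining genes are 5 activators (Psme) and the inhibitor gene Psmf1.

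The core particle is a stack of alpha and beta rings whose beta subunits Psmb5, Psmb6 and Psmb7 carry the catalytic sites. The regulatory particle caps the core: its Psmc ATPases unfold substrates, and its Psmd subunits bind and remove ubiquitin. In lymphoid cells and after interferon, Psmb8, Psmb9 and Psmb10 can take the places of Psmb5, Psmb6 and Psmb7, and the resulting immunoproteasome is known for making peptides for MHC class I. Valine is an essential amino acid, and the proteasome returns amino acids from old proteins to the cytosol.

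The study asked how dietary valine affects ribosome occupancy in T cell acute lymphoblastic leukaemia (T-ALL). All samples were GFP+ leukaemic cells sorted from the spleens of C57BL/6 mice bearing NOTCH-delta E tumours from a secondary transplant, which are driven by an activated Notch receptor. For 3 weeks the mice ate food whose valine content was 8 g/kg in the controls and 0, 0.4 or 0.8 g/kg in the other groups. These doses are those of the sample characteristics, while the treatment protocol describes the intermediate doses as valine given in the drinking water. Each diet had 1 total RNA library and 1 library of ribosome-protected fragments (RPF, the pieces of mRNA shielded by ribosomes) from T-ALL 2 and the same from T-ALL 3, which made 16 libraries and 2 per diet and fraction. The labels do not say whether these numbers mark tumours or mice, so the p-values speak only to the spread among these libraries, which may be technical. The promoter behind the transgene, the age and sex of the mice and any pooling were not given in the sources used here.

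RPF libraries held 41848 to 205545 reads assigned to genes and total RNA libraries 364685 to 1269364, which makes RPF values of single genes imprecise. RPF depth differed between diets, with 80367 and 79154 reads at 0 g/kg, and 140641 and 58529 at 0.4 g/kg. It was 205545 and 115202 at 0.8 g/kg, where 23.5% and 28.8% of genes were at 0. The controls had 41848 and 71432, with 44.6% and 36.6% of genes at 0. The part of depth in the RPF and TE medians over all genes was not tested. A proteasome gene had 0 to 86 RPF reads per library. Summed T cell markers (Cd3e, Lck and 6 others, all detected in every library) took 23.4 to 37.2 reads per 10000 in all 16 libraries. Of 5 lists of markers of other blood cells, the neutrophil and erythroid ones did not overlap between the valine-free and control libraries in either fraction. The 10 neutrophil markers took 27.0 and 3.03 RPF reads per 10000 at 0 g/kg against 0.24 and 0.42 at 8 g/kg, where 9 and 8 of them were at 0. In total RNA they took 4.61 and 2.08 against 0.17 and 0.17, with 0 and 1 of them at 0 in the valine-free libraries and 2 and 6 in the controls. The 8 erythroid markers went the other way, with 0.16 and 0.28 total RNA reads per 10000 at 0 g/kg against 1.65 and 4.07 at 8 g/kg. In total RNA, markers of B cells (2 of 5 in the table) took 0.085 to 0.72 reads per 10000 without valine against 0.047 to 0.24 in the controls, those of macrophages and dendritic cells (9 of 10) 0.21 to 0.26 against 0.20 to 0.22, and those of natural killer cells (4 of 5) 3.99 to 5.49 against 4.26 to 5.07, and these ranges overlapped. In RPF, B cell markers took 0.38 to 1.12 against 0 to 0.28 reads per 10000. The part of these cells in the diet results below was not tested. In such bulk samples, fewer cells of a type and less RNA per cell cannot be told apart.

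Immunosubunits are known to be induced by interferon and their partners to be transcribed constitutively, so the 250 bases before the start site are shown for the 3 immunosubunits, for Psmb5 and Psmb6 and for Psmb3, a beta subunit described below for its RNA level. Capitals mark a match to TGACNNNGC, the core of the antioxidant response element through which Nfe2l1 and Nfe2l2 drive proteasome genes, or to the core of the interferon-stimulated response element, which is GAAA, any 2 bases and GAAA again. Sequences are from RefSeq (GRCm38.p6), written 5′ to 3′ along the gene. They lie at chr17:34197945-34198194 (plus strand) for Psmb8, chr17:34187331-34187580 (minus) for Psmb9, chr8:105938393-105938642 (minus) for Psmb10, chr14:54617996-54618245 (minus) for Psmb5, chr11:70525107-70525356 (plus) for Psmb6 and chr11:97703184-97703433 (plus) for Psmb3.
Psmb8: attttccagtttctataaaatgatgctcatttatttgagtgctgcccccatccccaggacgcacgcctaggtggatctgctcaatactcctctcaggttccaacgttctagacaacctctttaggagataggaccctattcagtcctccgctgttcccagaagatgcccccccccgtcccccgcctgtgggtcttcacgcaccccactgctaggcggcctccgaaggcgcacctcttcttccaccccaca
Psmb9: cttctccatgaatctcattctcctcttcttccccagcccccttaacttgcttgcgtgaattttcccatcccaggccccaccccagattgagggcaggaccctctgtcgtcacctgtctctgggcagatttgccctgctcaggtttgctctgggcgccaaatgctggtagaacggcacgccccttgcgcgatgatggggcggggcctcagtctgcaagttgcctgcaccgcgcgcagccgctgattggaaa
Psmb10: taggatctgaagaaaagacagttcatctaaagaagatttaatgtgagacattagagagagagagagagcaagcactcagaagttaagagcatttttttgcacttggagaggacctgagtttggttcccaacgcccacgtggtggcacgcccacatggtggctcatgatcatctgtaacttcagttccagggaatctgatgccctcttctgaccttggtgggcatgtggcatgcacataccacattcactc
Psmb5: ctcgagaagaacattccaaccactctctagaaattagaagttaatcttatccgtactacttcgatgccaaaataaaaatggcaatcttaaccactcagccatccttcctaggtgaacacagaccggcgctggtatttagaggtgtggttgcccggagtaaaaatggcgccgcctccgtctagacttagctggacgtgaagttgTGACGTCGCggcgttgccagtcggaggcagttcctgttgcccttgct
Psmb6: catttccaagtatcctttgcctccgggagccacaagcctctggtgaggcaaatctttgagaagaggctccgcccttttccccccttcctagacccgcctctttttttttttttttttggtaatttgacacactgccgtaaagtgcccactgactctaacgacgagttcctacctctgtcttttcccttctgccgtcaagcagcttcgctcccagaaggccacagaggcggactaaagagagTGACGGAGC
Psmb3: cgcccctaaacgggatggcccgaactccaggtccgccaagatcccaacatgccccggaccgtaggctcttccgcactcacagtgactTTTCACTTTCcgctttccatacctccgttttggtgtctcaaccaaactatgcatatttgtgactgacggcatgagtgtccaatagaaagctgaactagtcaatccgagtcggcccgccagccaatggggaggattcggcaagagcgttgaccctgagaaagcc

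Both motifs were searched on both strands of 300 bases, from 250 before to 50 after each start site, and a gene counted once if any of its start sites had a match. TGACNNNGC was present for 6 of the 37 proteasome genes with an entry (16.2%) and for 14% of 27025 genes. The 6 were Psmb5, Psmb6, Psmc6, Psmd9, Psmd12 and Psme4, and the match lay 47 bases before the start site used in Psmb5 and 9 bases before that in Psmb6. The Psmb6 window runs past the listed start of the gene, chr11:70525324, so the match at the end of the printed bases lies inside the gene. The interferon core was present for 4 of 37 (10.8%), against 3.99% of all genes, namely Psmb3, Psmd4, Psmd9 and Psme1. In Psmd9, which had both, the matches did not overlap. The Psmb3 match lay on the opposite strand, 163 bases before the start. The windows of Psmb8, Psmb9 and Psmb10 held neither set of letters. Psmb8 and Psmb9 are neighbours in the MHC region of chromosome 17, and Psmb10 lies on chromosome 8.

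Proteasome genes were well expressed in these leukaemias. Levels are deposited FPKM, a per-length unit, and are given as the mean of the 8 libraries of a fraction. The gene lengths behind them were not given, and comparisons between genes depend on these lengths. The median over all 10054 genes tested in total RNA was 11.69 FPKM, and it was 156.2 for the 15 core particle genes and 84.53 for the 20 genes of the regulatory particle. In RPF, the median of all 9718 genes tested was 10.65 FPKM, against 87.91 and 60.27 for the same sets. Across the 43 genes with footprints, RNA and RPF levels had a Pearson correlation of 0.92 and a Spearman correlation of 0.90, a description over genes that share the same libraries.

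**Figure D1:**
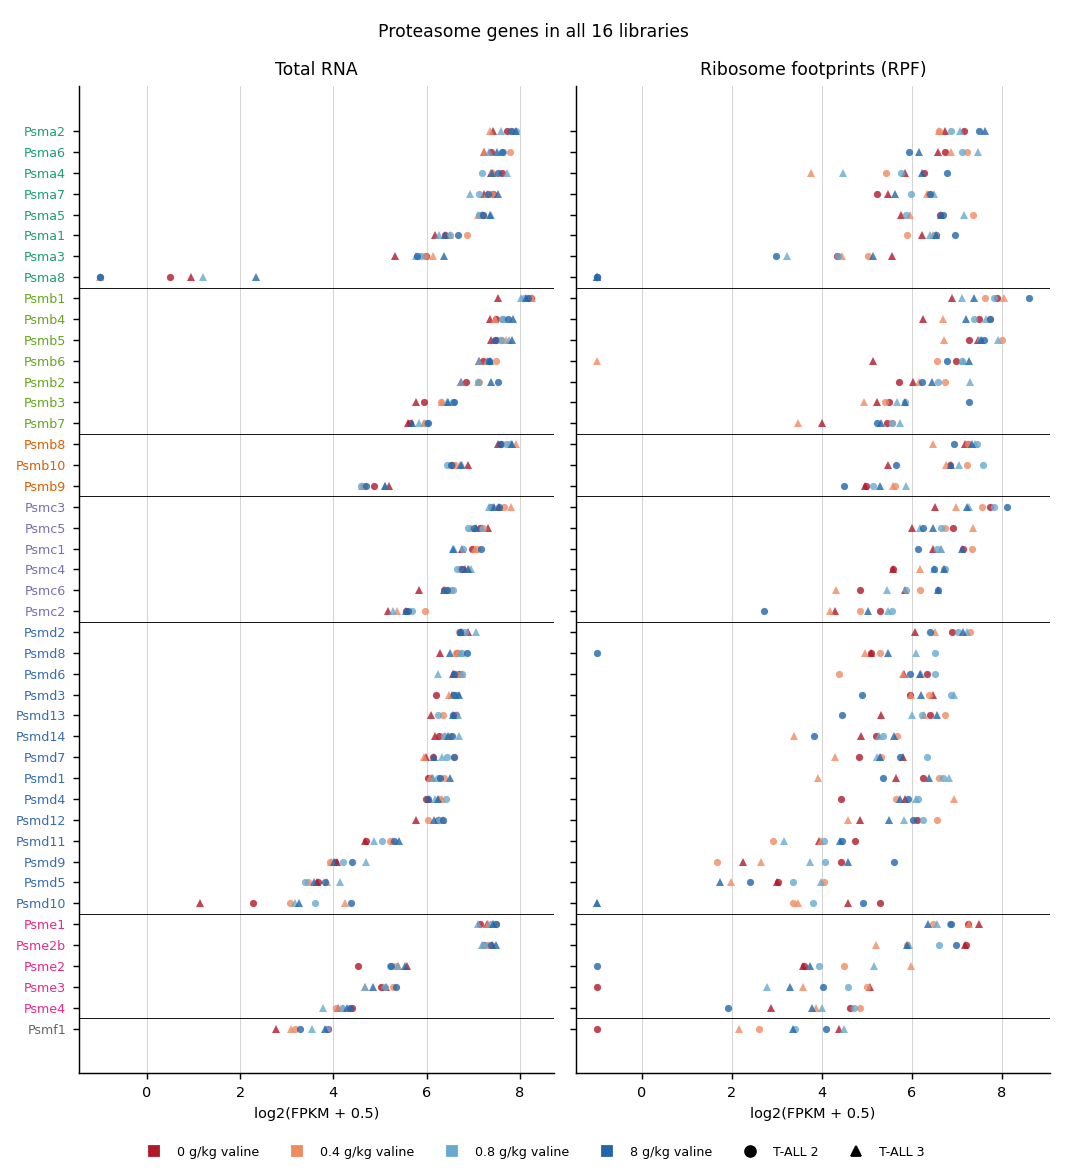
Expression of 44 proteasome genes as log2(FPKM + 0.5), total RNA on the left and RPF on the right, with 1 point per library; colour gives the diet and shape the T-ALL. Rows are ordered by class and level, and points at the far left are values of 0; Psmb1 tops the total RNA panel and Psma8 is close to 0.

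Within the core, the outer alpha rings, which gate the barrel, had a total RNA median of 152.8 FPKM, and the beta rings had 156.2. Psmb1, a beta subunit without a catalytic site, was the highest of all at 274 FPKM (range over libraries 184 to 307). Psma2 followed among alpha subunits at 209.5 FPKM (163 to 243). Psma3 and Psmb7 had the lowest FPKM of the ring members apart from Psma8, at 60.58 and 57.11. They had 1023 and 969 total RNA reads, more than the 651 of Psma1 at 89.29 FPKM. Psma8, the testis form of an alpha subunit, had 9 reads over the 8 total RNA libraries, 4 of them at 0, and 0 RPF reads, which allows up to 3.

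Genes of the regulatory particle were lower in level. Among the base ATPases, whose median was 114.6 FPKM, Psmc3 was highest at 183.4 and Psmc2 lowest at 46.11. Psmd2, the large scaffold of the base, led the other regulatory genes at 111.4 FPKM. The ubiquitin receptor Psmd4 had 72.73 FPKM and the deubiquitinase Psmd14 had 85.83. Psmd4 ranged from 63.4 FPKM in the T-ALL 2 library at 0 g/kg to 84.3 in that at 0.8 g/kg, and Psmd14 from 72.0 in the T-ALL 3 library at 0 g/kg to 103 in that at 0.8 g/kg. The lowest regulatory genes were the assembly chaperones, with Psmd9 at 17.72, Psmd5 at 12.66 and Psmd10 at 10.2 FPKM. These are not part of the finished particle.

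Activators are caps that open the core without ATP. Psme1, a subunit of the interferon-inducible activator, had 161.4 FPKM, while Psme3 and Psme4, which act mainly in the nucleus, had 32.13 and 17.68. Its partner Psme2 had 39.07 FPKM and the near-identical copy Psme2b had 158.5. How reads were divided between these copies is not known, so both values are uncertain. Psmf1, which inhibits the core, was at 10.64 FPKM. Psmc3ip had 24.84 FPKM in total RNA.

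The positions of a particle are filled in equal numbers, and immunosubunits can fill those of Psmb5, Psmb6 and Psmb7. The FPKM of the subunit mRNAs differed. The standard deviation (SD) across subunits of the 8-library mean on the log2 scale was 0.69 over 14 core subunits in total RNA, against 0.046 from counting error. It was 0.56 over 17 regulatory subunits, with a counting error of 0.046. In RPF the SDs were 0.88 and 0.82, with counting errors of 0.15 and 0.15. Psma8, the chaperones and the immunosubunits were left out of these sets, so Psmb5, Psmb6 and Psmb7 stand in them without their possible replacements. The difference in SD between fractions was not tested, nor was the part of the gene lengths behind FPKM, which counting error leaves out. Over the 14 core subunits, summed total RNA reads ran from 651 for Psma1 to 1693 for Psmb1. Their RPF reads ran from 51 for Psma4 to 179 for Psmb1.

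RPF reads per total RNA read differed between subunits of the same ring. Reads were summed over the 8 libraries of each fraction, and the median of 7285 genes with at least 100 total RNA reads was 12.55 RPF reads per 100 total RNA reads. The 7 alpha subunits with footprints lay between 4.32 and 13.2, and 6 of them were below that median. Among proteasome genes with footprints, Psma4 had the fewest per RNA read, 51 RPF reads for 1182 RNA reads (4.32 per 100, exact 95% binomial interval of the read share 3.19 to 5.71). Psma3 followed at 5.67 (4.27 to 7.39) and Psma7 at 6.05 (4.81 to 7.54). Psma1 had the highest value of its ring at 13.2 (10.4 to 16.6), an interval that overlaps those of Psma6 at 9.80 (7.99 to 11.9) and Psma5 at 9.64 (7.80 to 11.8). Intervals cover counting error only, since PCR copies are not independent molecules. Which parts of a transcript were counted in either fraction was not given, and its part in differences between genes was not tested.

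The remaining classes lay closer to the median gene. Core beta genes summed to 10.99 RPF reads per 100 RNA reads (10.2 to 11.8), base ATPases to 12.05 (11.2 to 12.9) and other regulatory genes to 12.03 (11.4 to 12.7), against 7.77 (7.14 to 8.45) for the alpha genes. Among regulatory genes, Psmd2 had 16.6 (14.7 to 18.7) and Psmd1, its fellow scaffold, had 15.8 (13.6 to 18.2). Psmd14 and the lid subunit Psmd11 were at 6.22 (4.55 to 8.33) and 6.29 (4.41 to 8.74), as low as the low alpha genes. Activators summed to 10.3 (9.32 to 11.4).

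**Figure D2:**
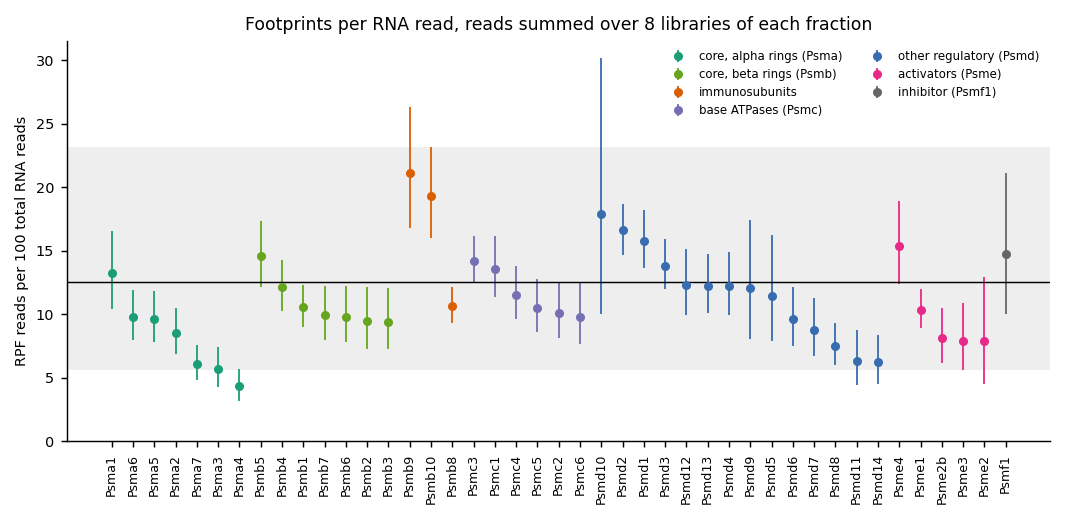
RPF reads per 100 total RNA reads for 43 proteasome genes (Psma8, with 0 RPF reads, is left out), from reads summed over 8 libraries per fraction; bars are exact 95% binomial intervals. The line marks the median gene at 12.55 and the grey band spans the genes from the 10th to the 90th percentile, 5.70 to 23.1; Psma4 and, narrowly, Psma3 lie below the band, and Psmb9 and Psmb10 are in its upper part.

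The low footprint share of the alpha rings appeared in each pair of libraries. In a pair, the class's share of RPF reads was expressed as a percent of its share of RNA reads. The alpha genes had 56.8% to 73.5% (median 63.8%, n = 8 pairs), and were below the regulatory particle in 8 of 8 pairs. Beta genes had 60.3% to 124% and were below it in 6 of 8, and the immunosubunits, with 81.9% to 131%, in 0 of 8. These are descriptions of class sums and carry no test.

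Single genes were tested with limma on the RPF minus total RNA difference of log2(FPKM + 0.5), called translational efficiency (TE) here, over the 8 pairs with diet in the fit and each pair centred on its median gene. At an adjusted p below 0.05 (Benjamini-Hochberg over 9361 genes) 1 of 43 proteasome genes was called, against 1041 genes or 11.1% of all. This gene was Psmb9, with a TE 0.72 ± 0.16 (SE) above that centre on the log2 scale (adjusted p = 0.038, limma). On this scale the median over all genes of the mean over pairs was -0.26. Before centring, RPF exceeded RNA for Psmb9 in 6 of 8 pairs. The call was lost without any one of the 8 pairs, where the adjusted p ranged from 0.074 to 0.126 at changes of 0.67 to 0.76. Psma4 was at -1.57 ± 0.43 with an adjusted p of 0.061 (limma), and its RPF was below its RNA in 8 of 8 pairs. At an unadjusted p below 0.05, Psma3, Psma4, Psma7 and Psmd14 were on the lower side, 4 of 43 against 16.2% of all genes, and Psmb9 alone on the higher side, against 14.8%. Both shares are below those of all genes.

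Psma4 shows how few reads lie behind such a value. Its total RNA was 195 and 168 FPKM at 0 g/kg, 170.1 and 172 at 0.4 g/kg, 145 and 211 at 0.8 g/kg, and 185 and 170.1 at 8 g/kg, for T-ALL 2 and T-ALL 3 in turn. Its RPF was 76.2 and 57.0 FPKM at 0 g/kg, 42.1 and 13.0 at 0.4 g/kg, 53.2 and 21.6 at 0.8 g/kg, and 109 and 74.2 at 8 g/kg. The RNA groups overlapped over the diets, and RPF was lowest in the T-ALL 3 library at 0.4 g/kg, where it rested on 1 read.

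The immunosubunits were part of the expressed set in every library. Psmb8 had 192 and 185 FPKM at 0 g/kg, 219 and 241 at 0.4 g/kg, 207 and 225 at 0.8 g/kg, and 189 and 228 at 8 g/kg in total RNA. Its partner Psmb5, the chymotrypsin-like subunit, had 179 and 166, 193 and 207, 194 and 216, and 176 and 228 FPKM in the same order. Psmb8 exceeded Psmb5 in 8 of 8 total RNA libraries, though by a median log2 ratio of only 0.10 (0.000069 to 0.22). Its RPF in FPKM was below that of Psmb5 in 8 of 8 libraries, with a median of -0.27. Without division by length the order turned, with 247 RPF reads for Psmb8 and 143 for Psmb5 over the 8 libraries.

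Psmb9 was the least abundant immunosubunit. It had 28.9 and 35.9 FPKM at 0 g/kg, 24.8 and 23.9 at 0.4 g/kg, 23.8 and 33.7 at 0.8 g/kg, and 25.5 and 34.1 at 8 g/kg in total RNA. Psmb6, the caspase-like subunit it can replace, had 147 and 139.7, 179 and 158, 162 and 139, and 161 and 165 FPKM. The log2 ratio of Psmb9 to Psmb6 was below 0 in 8 of 8 total RNA libraries, with a median of -2.48. In RPF the median was -1.61, and 7 of 8 libraries were below 0. The exception was the T-ALL 3 library at 0.4 g/kg, in which Psmb6 had 0 RPF reads.

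Psmb10 exceeded its partner in FPKM in both fractions. Its total RNA was 92.4 and 118 FPKM at 0 g/kg, 97.3 and 105 at 0.4 g/kg, 86.7 and 108 at 0.8 g/kg, and 90.9 and 107 at 8 g/kg. Psmb7, the trypsin-like subunit, had 49.9 and 48.2, 61.7 and 61.2, 63.6 and 56.6, and 64.5 and 51.4 FPKM. The log2 ratio was above 0 in 8 of 8 libraries of each fraction, with medians of 0.83 in total RNA and 1.51 in RPF. In FPKM the 3 pairs thus differed in balance, from Psmb9 far below Psmb6 to Psmb10 above Psmb7. This order depends on gene lengths that were not given. In summed reads, Psmb9 had 464 against 898 for Psmb6 in total RNA, and 98 against 88 in RPF. Psmb10 had 725 against 969 for Psmb7 in total RNA, and 140 against 96 in RPF. With 2 libraries per diet, an exact permutation test cannot go below p = 0.333, and no ratio was tested between diets.

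The footprint values of the immunosubunits differed as well. Psmb9 had 21.1 RPF reads per 100 RNA reads (16.8 to 26.3) and Psmb10 had 19.3 (16 to 23.2), while Psmb8 had 10.6 (9.27 to 12.1). In RPF, Psmb9 was at 30.8 and 30.7 FPKM at 0 g/kg, 48.6 and 47.3 at 0.4 g/kg, 34.7 and 58.2 at 0.8 g/kg, and 21.9 and 38.5 at 8 g/kg. Both libraries at 0.4 g/kg were above both at 0 g/kg and both controls. The RPF change of Psmb9 at 0.4 g/kg did not pass the test, nor did its TE change of 0.98 ± 0.47 (adjusted p = 0.797, limma).

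The 3 immunosubunits had unlike profiles over the 8 total RNA libraries. The correlation of log2 values was 0.74 between Psmb9 and Psmb10, 0.20 between Psmb8 and Psmb10 and -0.18 between Psmb8 and Psmb9. Among the most alike profiles in the whole table were those of Snrpc (0.96) and Hist1h2ad (0.93) for Psmb8, of Sec24d (0.97), Pbx3 (0.96) and Gabarapl1 (0.96) for Psmb9, and of Ogdhl (0.98) and Bax (0.96) for Psmb10. The peptide transporter gene Tap1 had 0.88 with Psmb10, 0.60 with Psmb9 and 0.04 with Psmb8. Its partner subunit gene Tap2 had 0.77, 0.41 and 0.62 in that order, and Psme1 had -0.26, -0.42 and -0.0078. These are descriptions over 8 libraries of 4 diets, and the most alike genes were picked as the highest of all genes tested.

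Without dietary valine, most proteasome genes had slightly lower RNA values, and no gene passed the test. In total RNA at 0 against 8 g/kg valine, 0 of 44 were called, as were 0% of all 10054 genes (limma, adjusted p below 0.05). Of the 44, 36 had a log2 change below 0, against 54% of all genes, and the median change was -0.21, against -0.04 over all genes. The median was -0.22 in the pair of T-ALL 3 libraries and -0.12 in that of T-ALL 2, and it was -0.11 in the fit without the valine-free T-ALL 3 library. Both valine-free libraries were below both controls for 16 of 44 genes, against 20.3% of all genes, and above both for 1 of 44, against 16.1%.

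The beta rings held 3 of the 5 genes with the smallest p. All 7 core beta genes were below 0 with a median of -0.27, and in the fit without the valine-free T-ALL 3 library 6 of 7 were. Core alpha genes had a median of -0.17 with 6 of 8 below 0, other regulatory genes -0.23 with 12 of 14, activators -0.11 with 5 of 5 and base ATPases -0.03 with 4 of 6. The immunosubunits had a median of 0.08 with 1 of 3 below 0, which became -0.09 without the valine-free T-ALL 3 library. Without the valine-free T-ALL 2 library, 3 of 5 activators were below 0, with a median of -0.02. The base ATPase median became -0.16 without the T-ALL 3 control and -0.02 without the valine-free T-ALL 3 library, that of core alpha -0.09 without the T-ALL 3 control, and that of the regulatory particle, -0.20 in all, became -0.06 without the valine-free T-ALL 3 library. Differences between these classes were not tested.

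At an unadjusted p below 0.05, 5 of 44 genes were on the lower side, against 4.02% of all genes, and 0 on the higher side, against 2.57%. The first of them was Psmb3, a beta subunit without a catalytic site, whose total RNA was 61.4 and 54.3 FPKM at 0 g/kg, 78.5 and 79.6 at 0.4 g/kg, 94.9 and 86.7 at 0.8 g/kg, and 95.1 and 87.6 at 8 g/kg. Both valine-free libraries were below all 6 others. The log2 change was -0.66 ± 0.16 (SE; adjusted p = 0.372, limma), or 57.9 ± 5.0 against 91.3 ± 5.3 FPKM (SD, n = 2 each).

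Psmb2, another beta subunit without a catalytic site, had a similar size of change. Its total RNA was 115 and 107 FPKM at 0 g/kg, 139 and 136 at 0.4 g/kg, 136 and 106 at 0.8 g/kg, and 185 and 167 at 8 g/kg. The 2 controls were above the 6 libraries of the 3 low diets. The log2 change was -0.67 ± 0.16 at 0 g/kg (adjusted p = 0.380, limma) and -0.55 ± 0.16 at 0.8 g/kg (adjusted p = 1.0, limma). Psmb4, a further beta subunit without a catalytic site, had 179 and 163 FPKM at 0 g/kg and 216 and 232 at 8 g/kg, a log2 change of -0.39 ± 0.13 (adjusted p = 0.646, limma).

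Psmd11 and Psmd10 were the regulatory genes among the 5. Psmd11 had 25.4 and 25.1 FPKM at 0 g/kg, 36.7 and 38.4 at 0.4 g/kg, 32.6 and 28.6 at 0.8 g/kg, and 39.1 and 41.8 at 8 g/kg, with both valine-free libraries lowest. Its log2 change was -0.67 ± 0.19 (adjusted p = 0.529, limma). Psmd10, the assembly chaperone also called gankyrin, had 4.32 and 1.69 FPKM at 0 g/kg against 20.2 and 9.06 at 8 g/kg. These rest on 4 and 1 reads against 33 and 10, and the summed share was 0.22 of that in the controls (exact 95% interval 0.067 to 0.55, counting error only). The fitted change was -2.12 ± 0.57 (adjusted p = 0.474, limma).

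**Figure D3:**
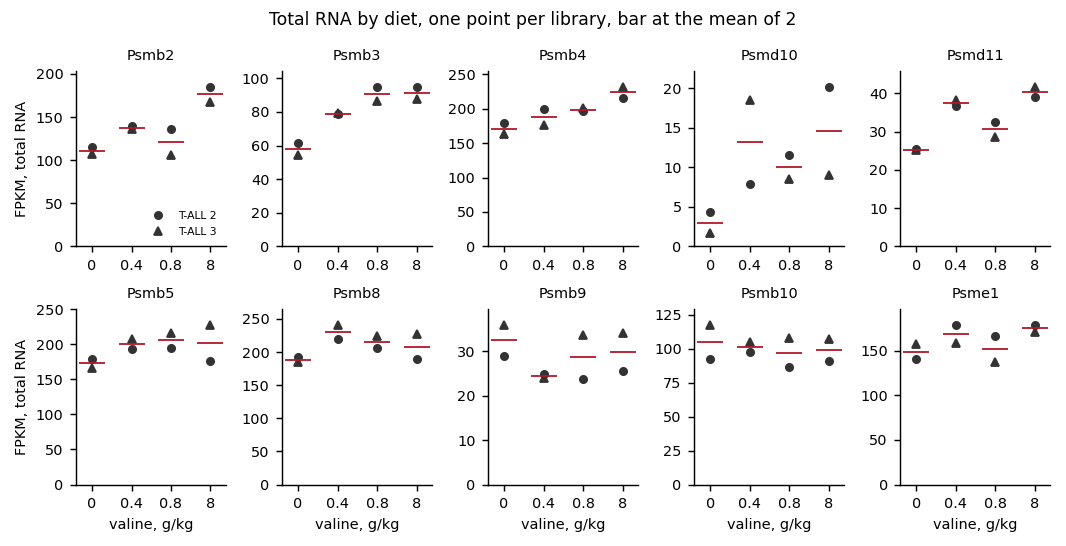
Total RNA level (FPKM, linear axis from 0) of 10 proteasome genes by diet, with circles for T-ALL 2, triangles for T-ALL 3 and a bar at the mean of the 2 libraries. The upper row shows the 5 genes with an unadjusted p below 0.05 at 0 against 8 g/kg; the lower row shows Psmb5, the 3 immunosubunits and Psme1, none of which had such a p.

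No member reached an unadjusted p below 0.05 on the higher side. The base ATPase Psmc5 had the smallest p on the higher side, with 142 and 159 FPKM at 0 g/kg against 129.9 and 133 at 8 g/kg and a log2 change of 0.19 ± 0.16 (95% interval -0.18 to 0.57). Psmd2 was second at 0.08 ± 0.15, a sign that turned in the fit without the valine-free T-ALL 3 library (-0.0076) and at equal depth (-0.062). The intervals for Psmb5 (-0.57 to 0.15) and Psmb8 (-0.46 to 0.18) include the change seen for Psmb4, and that of Psmb10 ran from -0.35 to 0.51. Psme1 had 141 and 158 FPKM at 0 g/kg and 179 and 172 at 8 g/kg, with a log2 change of -0.23 ± 0.15 and an interval from -0.58 to 0.11.

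**Figure D4:**
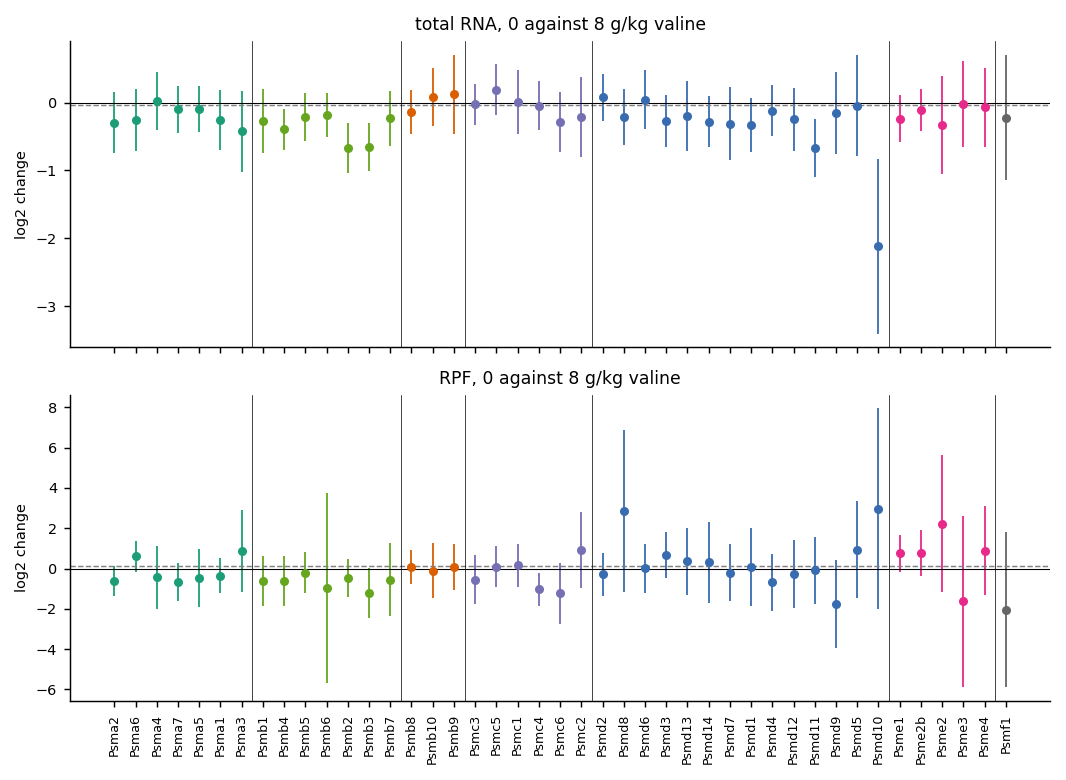
Log2 change at 0 against 8 g/kg valine per gene, total RNA above and RPF below on a wider axis, with 95% intervals from limma; the dashed line is the median of all genes tested, vertical lines separate the classes, and Psma8 is left out. All 7 core beta genes are below 0 in both panels, and the RPF intervals are several times wider than those of total RNA.

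The intermediate diets gave medians closer to 0 in RNA, and share their control libraries with the comparison above. With 0.4 g/kg, 0 of 44 genes were called (0% of all genes), 29 of 44 were below 0 (50.8% of all genes) and the median was -0.05, against -0.01 over all genes. None had an unadjusted p below 0.05 on the lower or the higher side, against 1.5% and 1.59% of all genes. With 0.8 g/kg, 0 of 44 were called (0% of all genes), 31 of 44 were below 0 (53.6% of all genes) and the median was -0.09, against -0.03. Psmb2 and the alpha subunit Psma7, at -0.38 ± 0.15, were the 2 genes with an unadjusted p below 0.05 on the lower side, against 2.14% of all genes. All 5 activators were below 0 at each of the 3 low doses, with medians of -0.11, -0.11 and -0.21, in fits that share their controls. Along the 4 diets in rank order, 34 of 44 slopes were positive, meaning more RNA with more valine, against 53.2% of all genes, and 0 of 44 were called (0% of all genes). Psmb3 had the smallest p, with 0.22 ± 0.05 per step (adjusted p = 0.451, limma), and Psmb2, Psmb4, Psmd10 and Psmd11 were also positive at an unadjusted p below 0.05, 5 of 44 against 3.71% of all genes.

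In RPF at 0 against 8 g/kg, 0 of 43 genes were called, and 0% of all genes were. Of the 43, 24 were below 0, against 43.2% of all genes. The median change was -0.20 while that of all genes was 0.12, and the members' median turned to 0.12 in the fit without the valine-free T-ALL 3 library. The core particle had 12 of 14 genes below 0, with a median of -0.51, and all 7 beta genes were among them. Without that T-ALL 3 library 10 of 14 core genes were below 0, with a median of -0.16, and 5 of 7 beta genes, with a median of -0.11. The regulatory particle, with 9 of 20 below 0 and a median of 0.05, had no stable direction. Leaving out 1 library moved its median from -0.28, without the T-ALL 2 control, to 0.35, without the valine-free T-ALL 3 library, where 5 of 20 were below 0. At an unadjusted p below 0.05 there was 1 gene on the lower side, against 2.22% of all genes, and 0 on the higher side, against 4.95%.

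That gene was the ATPase Psmc4, with RPF of 47.2 and 47.0 FPKM at 0 g/kg, 104 and 72.4 at 0.4 g/kg, 106 and 89.2 at 0.8 g/kg, and 89.6 and 105 at 8 g/kg. Both valine-free libraries were below the other 6, with a log2 change of -1.03 ± 0.36 (adjusted p = 0.602, limma). Summed over the diet, they held 16 reads against 24 in the controls, a share ratio of 0.47 (exact 95% interval 0.24 to 0.93, counting error only). Psmc4 was picked by its p in the same libraries, so this interval is no separate support. Psmc4 RNA was 106 and 113 FPKM against 108 and 118. Psmb3, the beta subunit with lower RNA, had RPF of 44.1 and 36.6 FPKM at 0 g/kg against 154 and 57.3 at 8 g/kg (-1.21 ± 0.53, adjusted p = 0.704, limma), with the T-ALL 2 control far above the other.

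Activators had RPF values on the other side. Psme1 footprints were 151 and 178 FPKM at 0 g/kg, 88.1 and 153 at 0.4 g/kg, 115 and 93.0 at 0.8 g/kg, and 117 and 80.8 at 8 g/kg. The 2 valine-free values were above both controls, and 1 of the 4 intermediate values, that of T-ALL 3 at 0.4 g/kg, was as high. The log2 change was 0.75 ± 0.39 (adjusted p = 0.818, limma), and the summed reads gave a share ratio of 1.75 (1.07 to 2.93, counting error only, 59 against 24 reads). This interval leaves out the spread between libraries. Psme2 rested on 0 reads in 1 control and 17 RPF reads in all. As a class, activators took 6.84 ± 0.34, 5.50 ± 0.44, 4.82 ± 1.17 and 4.16 ± 0.54 RPF reads per 10000 in the order of rising valine (SD, n = 2 each), while they took 6.36 ± 0.61, 6.35 ± 0.40, 5.86 ± 0.80 and 6.80 ± 0.16 total RNA reads per 10000. Psme1 alone held 198 of the 424 RPF reads of the class, so these sums are not separate from the Psme1 values above. In the per-gene fit 4 of 5 activators were above 0, with a median of 0.75 that became -0.05 without the T-ALL 2 control library.

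**Figure D5:**
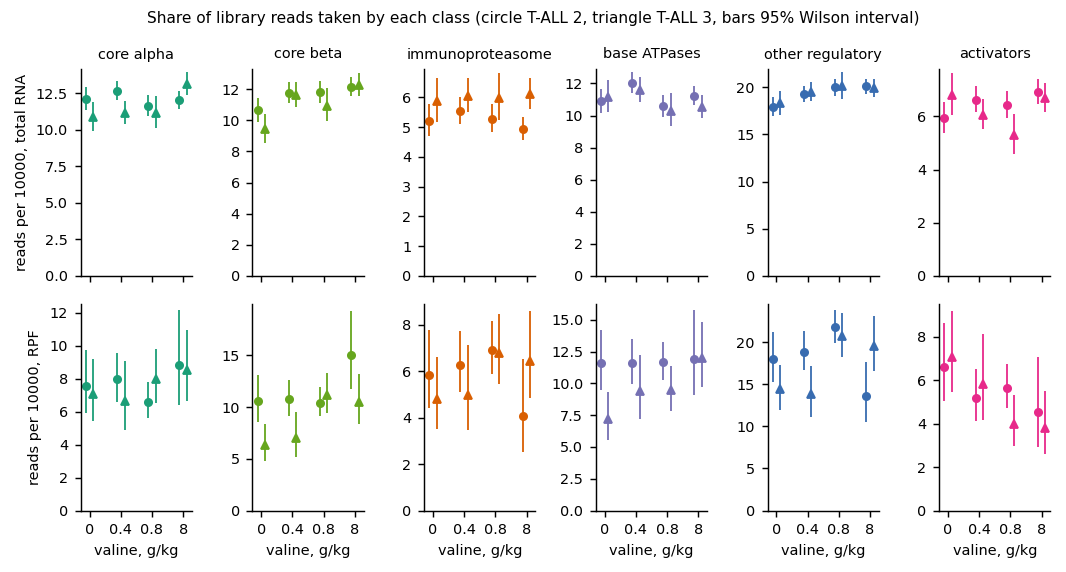
Reads per 10000 library reads taken by each proteasome class, total RNA above and RPF below, by diet; circles are T-ALL 2, triangles T-ALL 3, and bars are 95% Wilson intervals, which cover counting error only. In total RNA both valine-free libraries are lowest for core beta and for the other regulatory genes, and in RPF both are highest for the activators.

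Summed reads of the beta rings had their lowest mean without valine and their highest in the controls, in both fractions. Core beta genes took 10.03 ± 0.84, 11.69 ± 0.10, 11.37 ± 0.61 and 12.21 ± 0.08 total RNA reads per 10000 with rising valine (SD, n = 2 each). In RPF they took 8.45 ± 3.01, 8.87 ± 2.64, 10.8 ± 0.56 and 12.78 ± 3.22, where the SDs are large against the steps. In total RNA the other regulatory genes also had their lowest mean without valine, with 18.11 ± 0.27, 19.38 ± 0.20, 20.07 ± 0.13 and 19.98 ± 0.16 reads per 10000. All 44 genes summed took 62.93 ± 0.37 without valine and 68.37 ± 1.01 in the controls. The immunosubunits stayed between 5.52 and 5.80 total RNA reads per 10000 in the means of the 4 diets.

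At the intermediate doses some RPF changes of single genes were large but rested on few reads. With 0.4 g/kg, 0 of 43 were called (0% of all genes) and 23 were below 0, against 44.6% of all genes, with a median of -0.16 that became 0.38 without the T-ALL 3 library of that diet. Of the 43, 2 had an unadjusted p below 0.05 on the higher side, against 4.18% of all genes, and 4 on the lower side, against 2.49%. The higher ones were the alpha subunit Psma6 (0.99 ± 0.33) and Psme2 (3.87 ± 1.46), the lower ones Psma2 (-0.95 ± 0.31), Psma4 (-1.91 ± 0.67), Psmb3 (-1.39 ± 0.53) and Psmd9 (-2.94 ± 0.94). Psmd9 had 1 RPF read in each library at 0.4 g/kg. With 0.8 g/kg, 0 of 43 were called (0% of all genes), 29 were above 0, against 61.9% of all genes, and the members' median was 0.22 while that of all genes was 0.30. The genes Psma6 (1.24 ± 0.33), Psmd3 (1.37 ± 0.49) and Psmd8 (4.08 ± 1.72) had an unadjusted p below 0.05 on the higher side, against 4.72% of all genes. Psmd8 had 0 and 7 RPF reads in the controls of T-ALL 2 and T-ALL 3, against 38 and 16 at 0.8 g/kg.

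For Psma6 the RPF controls stood apart from all 3 low doses. Its footprints were 107 and 95.5 FPKM at 0 g/kg, 148 and 116 at 0.4 g/kg, 137 and 177 at 0.8 g/kg, and 60.7 and 71.1 at 8 g/kg, so both controls were below all 6 other libraries. These control values rested on 3 and 6 RPF reads. At 0 against 8 g/kg the summed reads, 19 against 9, gave a share ratio of 1.499. Its exact 95% interval (0.646 to 3.76, counting error only) includes equal shares. Psma6 RNA was 167 and 150.4 FPKM at 0 g/kg, 222 and 149 at 0.4 g/kg, 199 and 161 at 0.8 g/kg, and 197 and 183 at 8 g/kg. Both valine-free RNA values were below both controls, and those of the intermediate diets were spread around them. The adjusted p was 0.818, 0.669 and 0.732 at the 3 doses (limma), which share the 2 controls. Psma2, its ring neighbour in level, had RPF of 141 and 105 FPKM at 0 g/kg, 96.4 and 96.3 at 0.4 g/kg, 116 and 133 at 0.8 g/kg, and 179 and 196 at 8 g/kg. Here both controls were above the other 6. Along the diets in RPF 0 of 43 genes were called, against 0.0103% of all genes, and Psmb3 (0.42 ± 0.17 per step) and Psmc4 (0.33 ± 0.13) had the smallest p.

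No member passed the test for a change of footprints relative to RNA with diet. The TE fits called 0 of 43 genes with 0, 0.4 or 0.8 g/kg and along the diets, as they did 0% of all genes in each. At an unadjusted p below 0.05 there was 1 member at 0 g/kg, Psmd10 at 5.09 ± 1.85 on the higher side, against 4.84% of all genes. It had 5 and 3 RPF reads at 0 g/kg and 2 and 0 at 8 g/kg. The members' medians were -0.03, -0.01 and 0.21, against 0.20, 0.14 and 0.36 over all genes, and with each library centred on its median gene they became -0.24, -0.09 and -0.13. Without the T-ALL 3 pair of the diet in question the first became 0.22 and the second 0.44, so none of the 3 medians kept its sign under all settings. At 0.4 g/kg Psme2 (3.89 ± 1.63) and Psmd9 (-2.67 ± 0.95) had an unadjusted p below 0.05, against 4.21% of all genes on the higher and 2.47% on the lower side, and no member did with 0.8 g/kg, against 5.15% and 1.08%.

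Genes that build or feed the proteasome were taken as 3 lists. Of 18 symbols for assembly and associated factors, older names included, 15 were in the table, as were 12 of 13 for transcription and ubiquitin supply and 10 of 10 for class I presentation and interferon. None was called in any diet comparison of RNA, RPF or TE. At 0 against 8 g/kg in total RNA the medians were -0.14, -0.06 and 0.05. The alpha ring chaperone genes Psmg4 (-0.68 ± 0.16, adjusted p = 0.359) and Psmg2 (-0.92 ± 0.35, adjusted p = 0.694, limma) were 2 of 15 on the lower side at an unadjusted p below 0.05, against 4.02% of all genes. In RPF at that dose the medians were 0.26, -0.18 and 0.77, against 0.12 over all genes, and 9 of 15, 3 of 12 and 8 of 10 were above 0, against 56.7% of all genes.

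Over all diets, TE calls in these lists numbered 1 of 15, 2 of 12 and 3 of 10, against 11.1% of all genes. The first share is below that of all genes and the second near it. The deubiquitinase gene Uchl5 was below the centre of the pairs at -2.86 ± 0.59 (adjusted p = 0.030, limma). Uba1, the main ubiquitin-activating enzyme, was above it at 0.78 ± 0.17 (adjusted p = 0.034), and Rps27a, a fusion of ubiquitin with a ribosomal protein, was below at -1.58 ± 0.37 (adjusted p = 0.041). The class I genes Tap2 at 1.19 ± 0.16 (adjusted p = 0.0098), H2-K1 at 1.05 ± 0.19 (adjusted p = 0.020) and Tapbp at 1.04 ± 0.19 (adjusted p = 0.022) were above it, on the same side as Psmb9. Of the 10 genes of that list, 8 were above it and 2 below. The immunosubunit Psmb8 had RPF below RNA in 8 of 8 pairs before centring. After centring Psmb8 was at -0.22, close to the median of -0.26 over all genes. The core particle chaperone Pomp was at 0.77 ± 0.22 with an adjusted p of 0.067. Psmc3ip, which shares only the symbol, was called in no comparison.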

How the data were processed

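The authors deposited 1 table of FPKM for 12012 genes, with each library in a column of its own. Per the submitters' processing notes, STAR 2.5.0c, Bowtie2 2.3.4, cutadapt 1.18 and edgeR 3.14.0 were used with mm10 and GRCm38; the counting, annotation, gene filter and FPKM formula were not given in the sources used here. Values above 0 were whole multiples of 1 read per gene length: 100% of 149988 were whole within 0.02 reads, which gave reads per gene. The fits were tested on simulated data.

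Total RNA, RPF and their difference within a diet and T-ALL (TE) were fitted with limma 3.58.1 in R 4.3.3 (lmFit, eBayes with trend, diet as a factor over 8 libraries or pairs) on log2(FPKM + 0.5), keeping those whose FPKM averaged 1 or more. On this scale the added 0.5 shrinks the change of genes at low FPKM. In RPF, 1 read can be worth far more than 0.5, as for Psma4 with 13.0 FPKM. A library at 0 reads then gives a large change, as for Psmd8 in the T-ALL 2 pair at 8 g/kg, where RPF minus RNA was -7.86. Tests were two-sided, adjusted by Benjamini-Hochberg at 0.05 over all genes tested. SEs are moderated. All 44 genes passed the filter in total RNA and 43 in RPF. Trends used diet rank. Named genes were Psmb5 to Psmb10, Psme1, Psme2, Psmd4, Psmd14 and, per comparison, up to 2 members per direction with the smallest p, plus any called member; others were named after their values were seen. Of the 3 genes most alike to each immunosubunit, some are not reported here. The members and lists were chosen with earlier results of these data known. Alternatives were other pseudocounts, filters and scalings, equal depth, voom on recovered reads, a replicate block and leaving out each library.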

Additional observations from a re-analysis of the deposited data

How the results depend on the processing

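Depth limits the RPF values, since members had 0 to 86 reads per library, and with 2 libraries per diet a change must be large to pass. The members called for TE over all diets were 1 in the reported fit and at a pseudocount of 0.1, 2 (Psmb9 and Psma4) at a pseudocount of 1 or an FPKM minimum of 5, 0 without a filter, and 0 to 1 when a pair was left out, where the 1 was Psmd8, without the T-ALL 3 pair at 8 g/kg. With T-ALL number as a replicate block they were 0, and Psmb9 had an adjusted p of 0.064; same-numbered libraries had correlations of -0.040 to 0.250 in total RNA and -0.016 to 0.068 in RPF, so the numbers were not taken to pair samples. The fit that called Psmd8 kept the T-ALL 2 pair at 8 g/kg, in which Psmd8 had 0 RPF reads. No member was called in any diet comparison under any alternative. Over all genes, calls in that TE fit fell to 294 to 487 when a pair was left out.

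Calls over all genes at 0 against 8 g/kg became 3 (voom), 1 (equal depth) and 0 to 2 (leaving out a library) in total RNA, and 6, 1 and 0 to 56 in RPF, where the 56 came without the valine-free T-ALL 3 library. With 0.8 g/kg they became 1 at equal depth and 0 to 28 without a library in total RNA, the 28 without T-ALL 2. The unpaired TE fit called 12, 10 and 16 genes in order of dose. Along the diets, total RNA gave 2 at a pseudocount of 1, 24 by voom and 0 to 5 without a library. RPF gave 8 by voom and 0 in place of 1 at a pseudocount of 0.1, an FPKM minimum of 5, median centring, the replicate block, equal depth and without each library. Directions turned for Psmd2 in valine-free total RNA (-0.062 at equal depth, -0.0076 to 0.16 without a library of that comparison) and for Psmd9 with 0.8 g/kg (-0.0022 to 0.49). The valine share of the proteins was not run.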
